A study of Drosophila melanogaster with 12 samples.

Results

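Cuticle protein genes were taken as every gene with a probe set of its own whose symbol begins with Lcp, with Cpr and a digit, with Ccp84, Acp65A or Twdl, or is Pcp, Edg78E or Edg84A. This gave 104 genes with 106 probe sets, of 11982 genes that had a probe set of their own. The choice used names only, though earlier results of these data were known when it was made. By name, 66 were Cpr genes, 24 Twdl genes, 7 Lcp genes and 3 Ccp84A genes, with Acp65Aa, Pcp, Edg78E and Edg84A besides. Transcripts were measured on 12 Affymetrix arrays from whole male larvae of the Drosophila melanogaster strain Canton-S, which carried no labelled mutation or transgene. The control diet contained sucrose at 0.15 M and the high sugar diet at 1 M, larvae were kept at 25 degrees, and each of the 4 groups held 3 biological replicates. Wandering larvae of the last instar had stopped eating, were picked from the upper part of the vial with partly blue guts, and had lived on control or on high sugar food since hatching. The mid-L3 larvae, taken partway through the same instar, had all grown on control food and were moved for 12 h to new food of either kind. The diet comparisons at the stages therefore differ in stage and in length of exposure, which cannot be told apart. The stage comparison on high sugar food likewise sets 12 h of exposure against exposure since hatching. In both stage comparisons only the mid-L3 larvae are given as moved to new food. Neither difference can be told apart from stage.

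Insect cuticle is a layer of chitin fibres set in structural proteins, which the epidermis and the linings of trachea, foregut and hindgut secrete towards the outside. Most of these proteins carry the Rebers and Riddiford consensus, a chitin-binding domain, and in Drosophila they are named Cpr after the chromosome band of the gene, or Lcp, Pcp and Acp after the larval, pupal or adult cuticle in which they were first found. Tweedle (Twdl) proteins form a separate family of cuticle proteins without that consensus, and dominant mutations of TwdlD shorten the larva. Edg78E and Edg84A were found as genes that imaginal discs switch on after a pulse of ecdysone. Feeding larvae keep adding to the cuticle as they grow, whereas at the end of larval life the old cuticle is kept as the puparium and a pupal cuticle is made beneath it.

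Values are intensities per probe set, deposited by the authors on a linear scale. Differences are limma fits to log2 of the intensity plus 12.8, quantile normalized, with p-values adjusted by Benjamini-Hochberg over all genes tested in a comparison and a threshold of 0.05. Of the 104 genes, 50 had a mean over the 12 arrays above the filter at 73.3 and were tested. That is 48.1% of the cuticle protein genes, against 70% of all genes. Among the 50, 24 exceeded 73.3 only in a mid-L3 group mean, 2 only in a wandering group mean and 24 at both stages. The genes that passed only through 1 stage had to differ between the stages, so the counts and medians below describe the tested genes and lend no weight to a stage difference of the family. The tested genes nearest the threshold were Cpr65Ea, Cpr49Ae and Cpr64Ab with means of 76.2, 78.1 and 81.7, and the nearest untested ones were Cpr66D, Cpr47Ef and Cpr65Ec with 66.1, 60.2 and 58.6. Since whole larvae were measured, fewer cells of a type and less RNA per cell cannot be told apart.

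**Figure D1:**
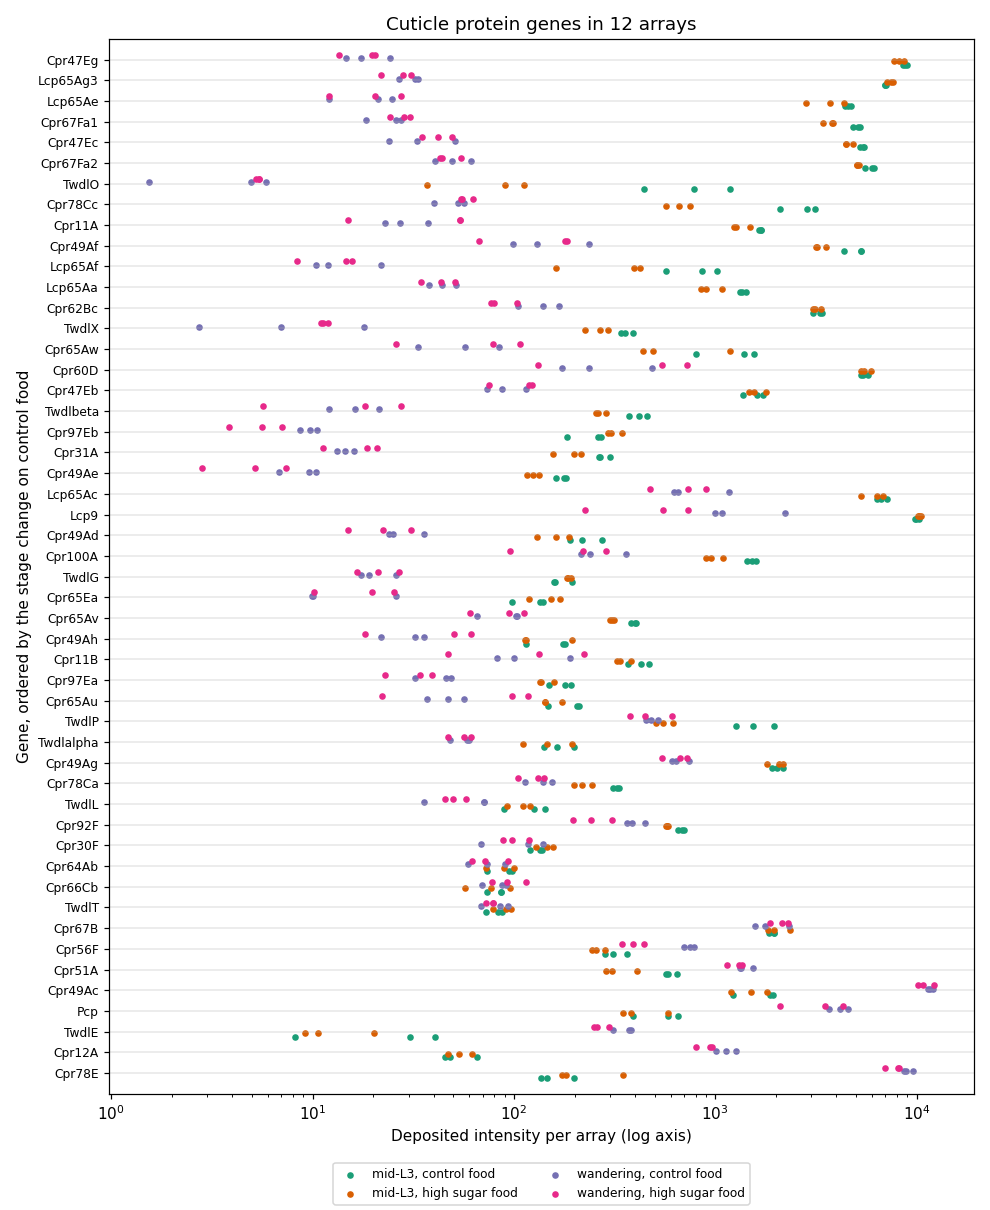
Deposited intensity (log axis) of the 50 tested cuticle protein genes in each of the 12 arrays, 1 point per array, coloured by group, with genes ordered by their change between the stages on control food. In 37 genes the intensities of all 6 mid-L3 arrays exceed those of all 6 wandering arrays, and in 6 genes the reverse holds; intensities of different genes come from different probes and are not comparable.

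Between mid-L3 and wandering larvae, most tested cuticle protein genes fell by large factors and a small set rose. On control food 40 of the 50 fell, where 38.8% of all 8387 tested genes did, and 7 rose, where 41.1% of all did. On the high sugar diet, given for 12 h in mid-L3 and since hatching in wandering larvae, 41 fell and 6 rose. Of all tested genes 40% fell and 39.9% rose in this comparison. The median log2 change of the 50 was -2.54 on control food and -2.46 on high sugar food, beside 0.03 and -0.02 for all tested genes, and single genes ranged from -7.96 to 5.66 on control food. By deposited intensity, all 6 mid-L3 arrays lay above all 6 wandering arrays in 37 of the 50, as in 26.5% of all tested genes. In 6 the reverse held, as in 41%. These counts precede quantile normalization, unlike the calls. The array medians were then 62.2 to 65.0 in mid-L3 and 79.1 to 82.4 in wandering larvae, which tilts the shares of all genes towards wandering. Without the filter, 59 of the 104 fell on control food, against 34.3% of 11982 genes, and 13 rose, against 35.6%. Both stage comparisons have their own 6 arrays, but all 12 arrays share the estimate of the spread. The median change of all genes on control food was 0.19 with the values as deposited and -0.10 with arrays centred on their medians, and 38 and 41 of the 50 fell under these scalings.

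By name, all 6 tested Lcp genes fell on control food, with a median of -4.73. Of the 34 tested Cpr genes 27 fell and 5 rose, with a median of -2.34. Of the 9 tested Twdl genes 7 fell and 1 rose, with a median of -1.72. Pcp, the gene of a pupal cuticle protein, was the 1 tested gene outside these families, and it rose. None of the 3 Ccp84A genes, Acp65Aa, Edg78E or Edg84A passed the filter.

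**Figure D2:**
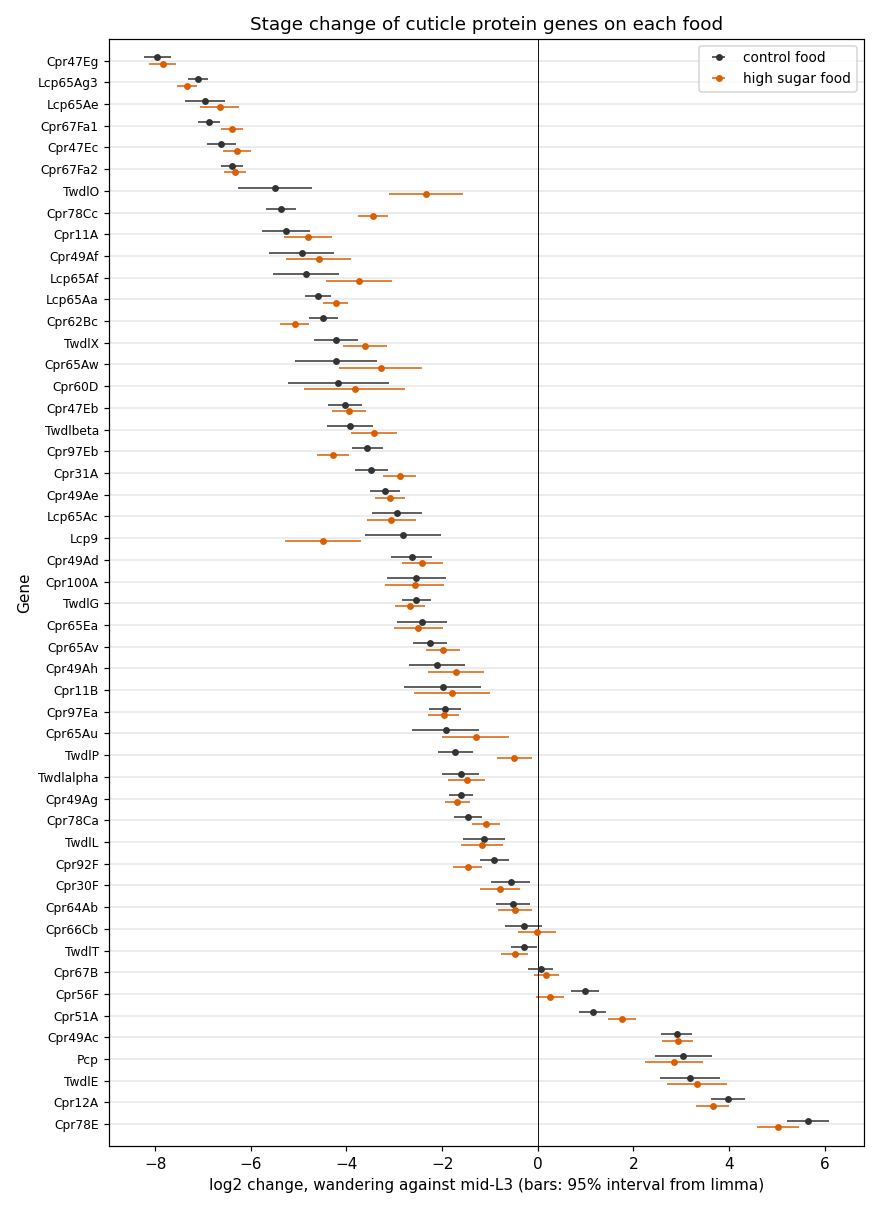
Log2 change between wandering and mid-L3 larvae of the 50 tested cuticle protein genes on control food (dark) and on high sugar food (orange), with 95% intervals from limma. On high sugar food, mid-L3 larvae had 12 h of exposure and wandering larvae exposure since hatching. The points of the 2 foods lie close together for most genes, and TwdlO, Cpr78Cc and TwdlP are among those whose interval on high sugar food lies nearer to 0.

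In gene order, 7 genes lie at 47E with at most 2 other protein-coding genes between neighbours (RefSeq order, assembly Release 6 plus ISO1 MT). The 3 that were tested all encode proteins of the Rebers and Riddiford group. Cpr47Eg stood at 8535, 8980.4 and 8739.9 in the mid-L3 control arrays and at 17.4, 24.1 and 14.6 in the wandering control arrays. This was the largest fall of any tested cuticle protein gene on control food, at -7.96 (SE 0.13, adjusted p = 1.9e-13). Cpr47Ec stood at 5218, 5414 and 5474 in the mid-L3 and at 50.8, 23.96 and 33.1 in the wandering control arrays, a log2 change of -6.61, and Cpr47Eb changed by -4.03 (adjusted p = 2.7e-10). No array of one stage reached the range of the other for any of the 3. The log2 changes on high sugar food were -7.84, -6.29 and -3.95. The untested neighbours did not all follow the same order: in Cpr47Ea every mid-L3 array exceeded every wandering array, while Cpr47Ee was at 2.34, 3.31 and 3.15 in mid-L3 and at 29.3, 47.3 and 65.1 in wandering control arrays, low values in the opposite order.

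The Lcp65A genes encode the major group of larval cuticle proteins on the third chromosome and lie among Cpr65A genes. In the longest stretch at 65A, 7 of 8 genes were tested and all 7 fell on both foods, with medians of -4.22 and -3.29. Lcp65Ag3 stood at 7073, 6955 and 6931 in mid-L3 and at 26.9, 32.2 and 33.2 in wandering control arrays, and at 7478, 7158 and 7630.1 and 21.8, 28.04 and 30.9 on high sugar food. Its log2 changes were -7.11 and -7.34 (adjusted p = 6.5e-14 and 4.4e-14). Stages were far apart, and the 3 arrays of each mid-L3 group lay within a narrow band. Lcp65Ae fell in the same way, by 6.96 and 6.65 on the log2 scale. Lcp65Af stood at 568, 1020.1 and 857 in mid-L3 control arrays and at 11.9, 21.98 and 10.4 in wandering ones, a change of -4.85 (SE 0.32).

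In the same stretch, Lcp65Ac kept clear signal in wandering larvae. It stood at 6679, 7139.9 and 6381 in the mid-L3 control arrays and still at 1177, 649.7 and 626 in the wandering control arrays, a change of -2.95 (SE 0.24, adjusted p = 1.2e-07). Cpr65Aw, Cpr65Av and Cpr65Au changed by -4.22, -2.25 and -1.93. The eighth gene, Lcp65Ad, was too dim to be tested, at 84.5, 110.04 and 74.97 in mid-L3 and 18.8, 23.02 and 22.8 in wandering control arrays. A few genes away lie Lcp65Aa, Cpr65Az and Acp65Aa, of which Lcp65Aa was tested and changed by -4.60 on control and -4.23 on high sugar food. Lcp65Aa has a second probe set, which gave 641, 771 and 585 in mid-L3 and 34.8, 10.6 and 20.7 in wandering control arrays. Both probe sets show stages that do not overlap.

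At 67F, Cpr67Fa1 and Cpr67Fa2 are close copies of each other with a probe set each. Cpr67Fa1 stood at 4808, 5263 and 5112 in mid-L3 and 25.8, 27.4 and 18.3 in wandering control arrays, and Cpr67Fa2 at 5571, 5981 and 6113 and 49.4, 40.4 and 61.2. Their log2 changes on control food were -6.87 (SE 0.10) and -6.40 (SE 0.11). The array also has 1 probe set that the platform assigns to both, and 1 each for Lcp65Ag1 with Lcp65Ag2, for Cpr65Ax1 with Cpr65Ax2 and for Ccp84Aa with Ccp84Ab, which are not reported here. How far a probe set of one copy binds transcripts of another was not tested.

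The 7 genes at 49A did not move as a unit. Of the 5 tested, Cpr49Ad, Cpr49Ae, Cpr49Af and Cpr49Ag fell and Cpr49Ac rose, on both foods. Cpr49Af stood at 5321, 4383 and 5315 in mid-L3 and at 237, 129.6 and 99.5 in wandering control arrays, a change of -4.93 (SE 0.31, adjusted p = 1.2e-08). Cpr49Ac ran the other way, from 1936, 1219.7 and 1860.4 to 12062, 11422 and 11675. Its log2 change was 2.90 (SE 0.15, adjusted p = 1.8e-09) on control food and 2.93 on high sugar food. In both genes the stages do not overlap, in opposite directions.

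Single Cpr genes elsewhere fell as well. Cpr11A stood at 1686, 1655 and 1694 in mid-L3 and at 37.5, 27.3 and 22.8 in wandering control arrays, a change of -5.27 (adjusted p = 4.7e-10). Cpr62Bc changed by -4.48 on control and -5.08 on high sugar food, Cpr97Eb by -3.56 and -4.28, and Cpr31A by -3.48 and -2.89. Cpr78Cc changed by -5.38 on control food and by -3.45 on high sugar food. Falls on control food were smaller for Cpr100A (-2.54), Cpr65Ea (-2.42), Cpr49Ah (-2.10), Cpr97Ea (-1.94), Cpr78Ca (-1.46) and Cpr92F (-0.91). Lcp9, a larval cuticle protein gene outside the 65A cluster, stood at 10220.1, 9778 and 9922 in mid-L3 control arrays and kept 2212, 999 and 1076 in wandering control arrays. The high sugar arrays went from 10125, 10235 and 10474 to 735, 227 and 552. Its log2 changes were -2.82 (SE 0.37) and -4.49 (SE 0.37), so it kept signal in wandering larvae on either food.

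Among the Tweedle genes, TwdlO had the largest fall on control food. It stood at 444, 1182 and 788 in mid-L3 control arrays and at 4.95, 5.90 and 1.54 in wandering control arrays, a difference on the log2 scale of -5.49 with SE 0.36 (adjusted p = 1.5e-08). Since the wandering values lie below the added constant, the size of this difference depends on it, and it was -7.27 with a constant of 1 and -3.59 with one 5 times larger. The mid-L3 arrays were themselves spread widely. TwdlX and Twdlbeta changed by -4.23 and -3.92, TwdlG by -2.54, and TwdlP, Twdlalpha and TwdlL by -1.72, -1.61 and -1.13. TwdlE rose, from 30.5, 8.22 and 40.6 in mid-L3 to 309.8, 383 and 374 in wandering control arrays, by 3.19 on the log2 scale (SE 0.29, adjusted p = 3.6e-07). In the longest stretch of Twdl genes, 3 of 12 were tested (TwdlL, TwdlO and TwdlP) and all 3 fell on both foods.

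The genes that rose on control food were Cpr78E, Cpr12A, TwdlE, Pcp, Cpr49Ac, Cpr51A and Cpr56F. Cpr78E had the largest rise, from 137, 146 and 199.8 in mid-L3 to 9619.9, 8700.2 and 8859.5 in wandering control arrays. The rise on the log2 scale was 5.66 (SE 0.20, adjusted p = 9.2e-11), and 5.01 on high sugar food, where it went from 182, 347 and 173 to 8199, 8127 and 6974. All 6 wandering arrays lay above all 6 mid-L3 arrays. Cpr12A went from 48.3, 45.5 and 65.5 to 1273, 1013 and 1136 on control food, a change of 3.98, and changed by 3.65 on high sugar food. Pcp, a protein of the pupal cuticle, was already at 653, 392 and 583 in mid-L3 control arrays and reached 4544, 3677 and 4162 in wandering ones, a rise of 3.04 on the log2 scale (SE 0.28, adjusted p = 3.5e-07). On the high sugar diet Pcp stood at 3519, 4289 and 2094 in wandering larvae, where replicate 3 was low. Edg78E and Edg84A, the other genes named for the ecdysone response or the pupal period, stayed untested, and no array gave either more than 26.7.

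Cpr51A and Cpr56F rose less. Cpr51A went from 644, 569.8 and 580.1 to 1332, 1337 and 1533 on control food, a change of 1.15 (SE 0.13), and by 1.76 (SE 0.13) on high sugar food. Cpr56F went from 285, 312 and 365 to 753, 702 and 787 on control food, a change of 0.99 (adjusted p = 1.7e-05). Larvae on high sugar food went from 282, 245 and 255 to 389, 442 and 344, a log2 change of 0.25 that did not pass the test (adjusted p = 0.11, 0.00062 to 0.38 over the alternatives). It passed with the values as deposited (adjusted p = 0.00062), with arrays centred on their medians (0.045), with array weights (0.025) and without wandering high sugar replicate 3 (0.027).

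For Cpr67B, Cpr66Cb and TwdlT the change between the stages on control food did not pass. Cpr67B stood at 1959, 1948 and 1858 in mid-L3 and 2315, 1771 and 1573 in wandering control arrays, with a log2 change of 0.06 (95% interval -0.20 to 0.32, adjusted p = 0.67). The arrays of both stages overlapped. Centring arrays on their medians turned this change to -0.34 (adjusted p = 0.029), and its sign changed in 4 of 27 alternatives. Cpr66Cb changed by -0.30 on control food (95% interval -0.69 to 0.10) and TwdlT by -0.29 (95% interval -0.57 to -0.01). TwdlT had an adjusted p of 0.055 on control food and passed in 5 of 26 alternatives (range 0.029 to 0.93), among them without wandering control replicate 3 (0.029) or mid-L3 control replicate 3 (0.042). It fell on high sugar food, by 0.48 on the log2 scale (adjusted p = 0.0040).

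Cpr30F and Cpr64Ab passed on control food with log2 changes of -0.57 and -0.51 (adjusted p = 0.014 and 0.012), but their intensities overlapped between the stages. Both calls ended without wandering control replicate 2 (adjusted p = 0.056 and 0.056) and with the values as deposited (0.19 and 0.26). Over all alternatives the adjusted p spanned 0.0021 to 0.19 for Cpr30F and 0.0023 to 0.26 for Cpr64Ab. With high sugar the call of Cpr64Ab ended without wandering high sugar replicate 2 (0.065) or mid-L3 high sugar replicate 3 (0.074). That of TwdlP ended without wandering high sugar replicate 2 (0.075) or mid-L3 high sugar replicate 1 (0.074). With the values as deposited, the calls of Cpr64Ab, TwdlP and TwdlT on high sugar food ended (0.36, 0.23 and 0.22). The other 45 calls on control food and 44 on high sugar food held in each alternative that kept the gene.

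Most of the 54 untested genes were dim in every group. Their means over the 12 arrays ran from 5.52 to 66.1 with a median of 18.3, no single value exceeded 152, and 44 of them had no group mean above 73.3. By deposited intensity, all 6 mid-L3 arrays lay above all 6 wandering arrays in 12 of them, and in 4 the reverse held, as in 15.2% and 18.8% of all untested genes. Acp65Aa, named for an adult cuticle protein, stood at 152, 96.1 and 143 in mid-L3 control arrays and 19.9, 3.02 and 15.3 in wandering ones, and TwdlM at 73.1, 86.1 and 97.4 and 5.65, 3.77 and 6.18. On the wandering side, Cpr65Ec stood at 13.6, 20.4 and 14.4 in mid-L3 and 64.8, 116 and 122 in wandering control arrays. Cpr64Aa stood at 19.99, 6.34 and 18.4 and 91.4, 69.2 and 65.2, and TwdlD at 10.7, 21.7 and 16.7 and 45.1, 49.9 and 60.4. These values show the order of the stages at low signal. The 4 genes at 84A (Ccp84Ac, Ccp84Ae, Ccp84Ag and Edg84A), the 3 at 72E and the 4 at 76B held no tested gene. Cpr47Ef has 2 probe sets, with means over all arrays of 60.2 and 15.9, both under the filter.

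After 12 h on high sugar food, 9 of the 50 tested cuticle protein genes were lower in mid-L3 larvae and none were higher. Of all 8387 tested genes, 6.45% were lower and 7.57% higher in this comparison. The median log2 change was -0.20 for the 50 and 0.01 for all tested genes. In 22 of the 50 all 3 high sugar arrays lay below all 3 control arrays, as in 20.4% of all tested genes, and in 2 they lay above, as in 19.4%. The mid-L3 control arrays also serve in the stage comparison on control food, so these comparisons are not independent. Of the 9, TwdlO, Cpr78Cc, TwdlP and Cpr51A passed in each alternative tried.

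Cpr78Cc, a Rebers and Riddiford gene, stood at 3119.8, 2087 and 2856 in mid-L3 larvae on control food and at 661, 747 and 570.4 after 12 h of high sugar. The high sugar arrays all lay far below the control arrays. The log2 change was -1.79 (SE 0.15, adjusted p = 5.0e-06). In wandering larvae the gene was near 49.7 ± 8.34 on control and 57.3 ± 4.38 on high sugar food (mean ± SD, n = 3), so that the mid-L3 larvae given high sugar lay between the other mid-L3 larvae and the wandering larvae. Its neighbour Cpr78Ca also fell, from 323, 332 and 311 to 219, 245 and 198, by 0.50 on the log2 scale (adjusted p = 0.024). These 2 were the only tested genes of the 4 at 78C, where Cpr78Cb and Edg78E were too dim.

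TwdlO stood at 444, 1182 and 788 on control food and at 90.3, 36.95 and 113 on high sugar food in mid-L3 larvae, without overlap, and fell by 3.04 on the log2 scale (SE 0.36, adjusted p = 0.0001). TwdlP, which lies in the same stretch of Twdl genes, stood at 1271, 1951 and 1543 and 614, 511 and 548, a change of -1.31 (SE 0.17, adjusted p = 0.00023). Its mid-L3 values with high sugar overlapped the range of the wandering larvae, which stood at 519, 452 and 482 on control and 449.9, 379 and 609 on high sugar food. The third tested gene of that stretch, TwdlL, changed by -0.11 (95% interval -0.55 to 0.33, adjusted p = 0.79). In a fit without the filter, TwdlK of the same stretch fell by 0.63 (adjusted p = 0.029). Its mid-L3 values were 65.2, 107 and 74.4 on control and 49.2, 45.3 and 61.2 on high sugar food.

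Cpr51A stood at 644, 569.8 and 580.1 on control food and 308, 407 and 288 on high sugar food in mid-L3 larvae, and fell by 0.74 on the log2 scale (SE 0.13, adjusted p = 0.0025). Unlike the other 8, it rose between the stages. Acp65Aa, untested in the main comparison, went from 152, 96.1 and 143 to 29.9, 54.8 and 38.2 and fell by 1.55 in the fit without the filter (adjusted p = 0.0029), in which 9 of the 104 cuticle protein genes and 4.69% of 11982 genes were lower. Its arrays did not overlap between the diets.

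The other 5 calls in mid-L3 larvae depended on single arrays. Lcp65Af stood at 568, 1020.1 and 857 on control food and 395, 163 and 425 on high sugar food, with no overlap and a change of -1.23 (SE 0.32, adjusted p = 0.021, range 0.0094 to 0.082). The call ended without mid-L3 control replicate 2 (0.082), control replicate 3 (0.079) or high sugar replicate 2 (0.059). For Cpr78Ca the adjusted p ranged over 0.0017 to 0.11. Its call ended without mid-L3 control replicate 1 (0.061), 2 (0.073) or 3 (0.061) and without high sugar replicate 1 (0.060) or 3 (0.11).

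Lcp65Aa changed by -0.43 (adjusted p = 0.035, range 0.0034 to 0.15), from 1330.4, 1426 and 1353 to 1082, 853 and 896. The call ended without mid-L3 control replicate 1 (0.073), 2 (0.10) or 3 (0.095) and without high sugar replicate 2 (0.15) or 3 (0.13). It also ended with an added constant of 1 (0.055), without the filter (0.051) and without both control arrays numbered 1 (0.076). The second probe set of Lcp65Aa was also lower without overlap, at 641, 771 and 585 on control and 418, 369 and 356 on high sugar food. Cpr67Fa1 changed by -0.36 (adjusted p = 0.035, range 0.0023 to 0.13), and its call ended without any of the 6 mid-L3 arrays (0.060 to 0.13), with an added constant of 1 (0.083) and without both control arrays numbered 1 (0.067). Cpr31A changed by -0.52 (adjusted p = 0.048, range 0.010 to 0.19). Its call ended without any wandering control array (0.054 to 0.060), any mid-L3 control array (0.090 to 0.15), or mid-L3 high sugar replicate 2 (0.19) or 3 (0.11), and with an added constant of 1 (0.12), without the filter (0.051) or without both control arrays numbered 1 (0.10).

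**Figure D3:**
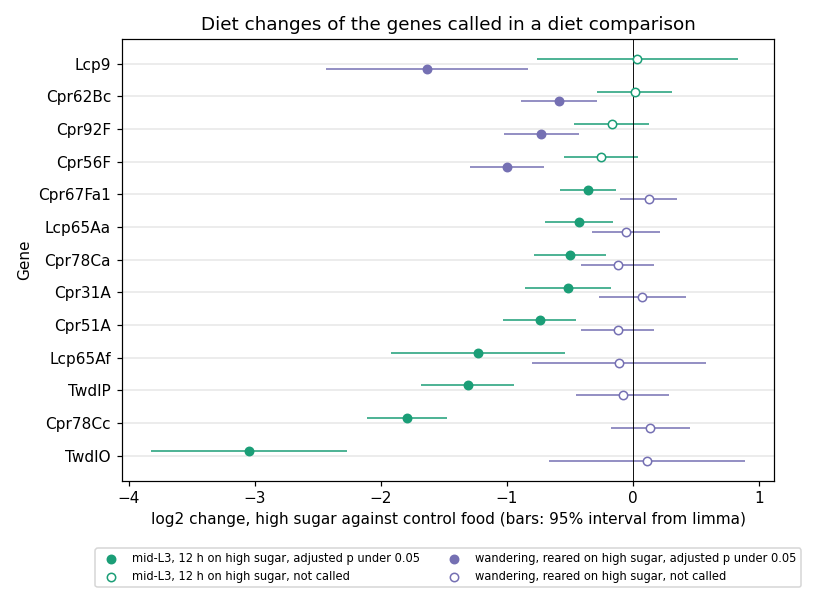
Log2 change between high sugar and control food, with 95% intervals from limma, of the 13 cuticle protein genes that passed in a diet comparison, in mid-L3 larvae after 12 h (green) and in wandering larvae reared on the food (purple), with filled points for an adjusted p under 0.05. Each of the 13 passed at 1 stage, and all filled points lie below 0.

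Several genes with large changes between the stages did not pass in the diet comparison of mid-L3 larvae. Cpr47Eg stood at 8158, 7691 and 8614 after 12 h of high sugar, beside 8535, 8980.4 and 8739.9 on control food, a log2 change of -0.17 (95% interval -0.45 to 0.12). Lcp65Ag3 changed by 0.10 (95% interval -0.11 to 0.30) and Lcp9 by 0.03 (95% interval -0.77 to 0.84). The interval of Lcp9 rests on a spread shared by all 12 arrays and does not measure the mid-L3 spread alone. Its log2 SD was 0.035 and 0.028 in the mid-L3 control and high sugar groups, and 0.660 and 0.892 in the wandering ones. Of the genes that rose with stage, Cpr78E changed by 0.46 (95% interval 0.03 to 0.90) and Pcp by -0.25 (95% interval -0.85 to 0.35). None of these 5 passed.

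In wandering larvae reared on high sugar food, 4 of the 50 tested cuticle protein genes were lower and none were higher, where 2.86% of all tested genes were lower and 3.73% higher. The median log2 change was -0.07 for the 50 and -0.01 for all. In 8 of the 50 the high sugar arrays all lay below the control arrays, as in 9.19% of all tested genes, and in none above, as in 10.4%. The 4 genes were Lcp9, Cpr56F, Cpr92F and Cpr62Bc, none of which passed in mid-L3 larvae. Cpr56F stood at 753, 702 and 787 on control and 389, 442 and 344 on high sugar food, and fell by 1.0 on the log2 scale (SE 0.13, adjusted p = 0.00066). The groups were well separated, and this call held in each alternative (range of adjusted p 3.4e-05 to 0.011).

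Lcp9 had the largest fitted change and the widest spread of the 4. It stood at 2212, 999 and 1076 on control food and at 735, 227 and 552 on high sugar food, a fall of 1.63 on the log2 scale (SE 0.37, adjusted p = 0.021, range 0.0059 to 0.12). The call ended without wandering control replicate 1 (0.067), without both control arrays numbered 1 (0.096), when only the 6 compared arrays were fitted (0.12) and with a robust variance prior (0.062). Cpr92F went from 449, 387 and 366 to 306, 196 and 240.4, a change of -0.73 (SE 0.14, adjusted p = 0.0069), and lost its call only when the 6 compared arrays were fitted alone (0.075, range 0.00095 to 0.075). Cpr62Bc went from 168, 139.6 and 105 to 79.99, 76.98 and 103, by -0.59 on the log2 scale (adjusted p = 0.025, range 0.0054 to 0.14). Its call ended without wandering control replicate 1 (0.077) or 2 (0.0502), without high sugar replicate 1 (0.086), without both control arrays numbered 1 (0.11) and with the 6 arrays alone (0.14).

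**Figure D4:**
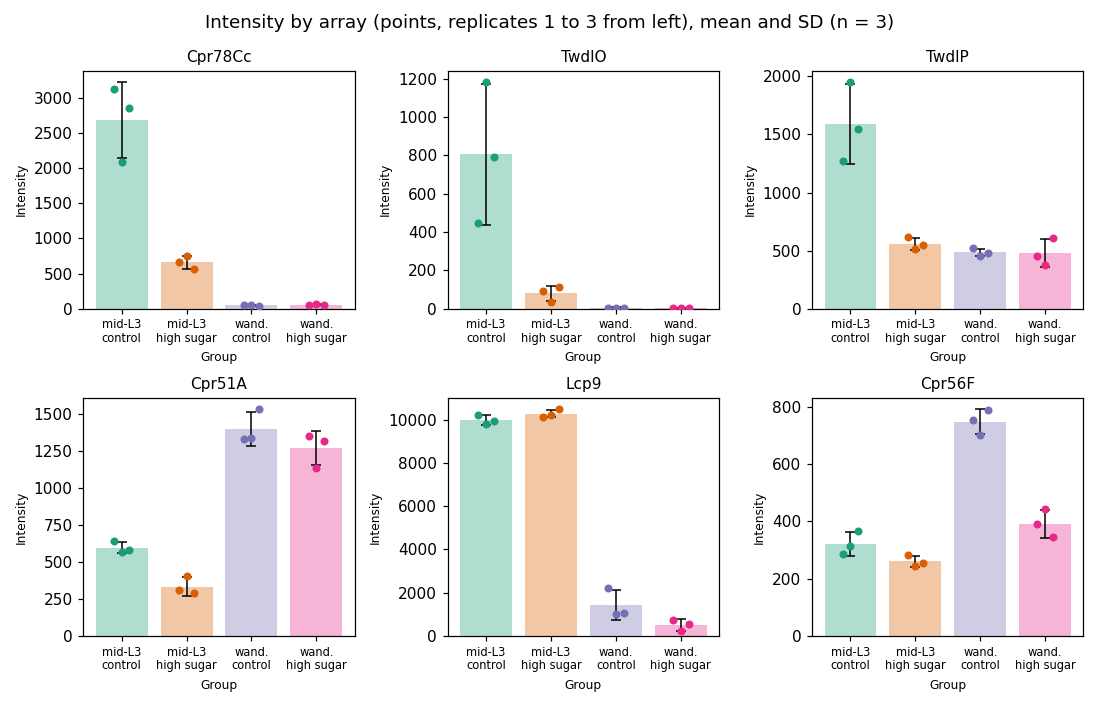
Deposited intensity of 6 cuticle protein genes in the 4 groups, with the 3 arrays as points and bars for the mean with its SD (n = 3). Cpr78Cc, TwdlO, TwdlP and Cpr51A are lower on high sugar food in mid-L3 larvae without overlap, and Lcp9 and Cpr56F in wandering larvae.

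The diet changes at the stages were compared directly, as the change in wandering larvae minus that in mid-L3 larvae. In 3 of the 50 genes this difference passed above 0, against 3.82% of all tested genes, and in 1 it passed below 0, against 3.98%. TwdlO differed by 3.15 (SE 0.51, adjusted p = 0.0021), Cpr78Cc by 1.93 (SE 0.21, adjusted p = 0.0001) and TwdlP by 1.23 (SE 0.24, adjusted p = 0.0073). In wandering larvae these genes changed with diet by 0.11 (95% interval -0.67 to 0.89), 0.14 (-0.18 to 0.45) and -0.08 (-0.45 to 0.29). TwdlO and Cpr78Cc were there at low signal on either food, with means of 4.13 ± 2.29 and 5.36 ± 0.0832 for TwdlO (mean ± SD, n = 3). TwdlO lay below the added constant of 12.8 in all 6 wandering arrays, so a fall with diet could not be measured there and its difference repeats the change in mid-L3 larvae.

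Cpr56F differed in the other direction, by -0.75 (SE 0.19, adjusted p = 0.030, range 0.0031 to 0.12). That call ended without wandering control replicate 1 (0.054) or 3 (0.079), wandering high sugar replicate 1 (0.060) or 3 (0.060), mid-L3 control replicate 1 (0.077) or 2 (0.065), and mid-L3 high sugar replicate 1 (0.081) or 3 (0.064). Without both control arrays numbered 1 its adjusted p was 0.12. For Lcp9 the difference was -1.67 (95% interval -2.80 to -0.54, adjusted p = 0.074) and for Cpr51A 0.62 (adjusted p = 0.068), and neither passed. The difference for Lcp9 passed in 2 of 25 alternatives (range of adjusted p 0.021 to 0.19), among them the fit without wandering high sugar replicate 1 (0.021). For Cpr51A it passed in 6 of 25 (range 0.0077 to 0.23), which include the other scalings, array weights, and the fits without wandering control replicate 3 (0.034), wandering high sugar replicate 2 (0.044) or mid-L3 high sugar replicate 2 (0.026). For Cpr67Fa1 the difference was 0.48 (adjusted p = 0.065) and passed in 7 of 25 (range 0.0028 to 0.15). For these 3 genes, whether the diet change differs between the stages depends on the setting.

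Some cuticle protein genes varied widely between replicates in wandering larvae. The median SD of all tested genes on the log2 scale was 0.171 in wandering larvae on high sugar food and 0.101 to 0.133 in the other 3 groups. For Cpr60D it was 1.27 in wandering larvae on high sugar and 0.747 on control food. Cpr60D had the widest spread, with 483, 236 and 174 in wandering control arrays and 541, 132 and 723 in wandering high sugar arrays. Its mid-L3 arrays lay within 5269 to 5902. Cpr11B stood at 191, 99.8 and 82.5 and 133, 47.01 and 223 in the wandering arrays, and Cpr65Au at 56.4, 47.3 and 36.9 and 98.1, 22.1 and 118. In these 3 genes wandering high sugar replicate 2 was the lowest of its group and wandering control replicate 1 the highest of its own.

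The same arrays stood at the ends in much of the family. Wandering high sugar replicate 2 was the lowest of its group in 28 of the 50 genes (41.7% of all tested genes), and wandering control replicate 1 the highest in 29 (32.7%). Among the 40 genes that fell between the stages on control food, the counts were 25 and 25. In the 7 that rose, wandering high sugar replicate 3 was the lowest in 5 (35.4% of all tested genes) and wandering control replicate 2 in 6 (37.0%). In mid-L3 larvae, high sugar replicate 2 was the lowest of its group in 28 of the 50 (35.2% of all tested genes). Without wandering high sugar replicate 2, the diet comparison in wandering larvae gave 3 genes higher, with adjusted p in brackets: Cpr11A (0.0078), Cpr60D (0.026) and Cpr65Au (0.0044), against 8.07% of all tested genes, and 4 lower, against 9.12%. Without wandering control replicate 1 it gave 2 lower, against 2.02%, and none higher, against 2.81%.

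Some regulators of the ecdysone response were ordered the opposite way in these arrays. Eip78C, an early ecdysone-induced nuclear receptor gene, stood at 423, 746 and 811 in wandering control arrays and 314, 758 and 346 in wandering high sugar arrays. Hr4, another such receptor gene, stood at 198, 333 and 344 and 185, 345 and 102. Both were lower in control replicate 1 than in the other control arrays, and lower in high sugar replicates 1 and 3 than in replicate 2. Cpr60D, Cpr11B and Cpr65Au were higher in those same arrays. The nuclear receptor gene ftz-f1 stood at 73.97, 63.2 and 55.8 and 84.3, 51.3 and 137. By the normalized values, 3 of the 9 tested regulators (Eip78C, Hr4 and Hr39) were lowest in control replicate 1 and highest in high sugar replicate 2, as in 12.9% of all tested genes, and ftz-f1 alone ran the other way. Among the 50 cuticle protein genes 23 were highest in control replicate 1 and lowest in high sugar replicate 2, as in 14.2% of all tested genes. The part of these differences in the spread of the cuticle protein genes was not tested.

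**Figure D5:**
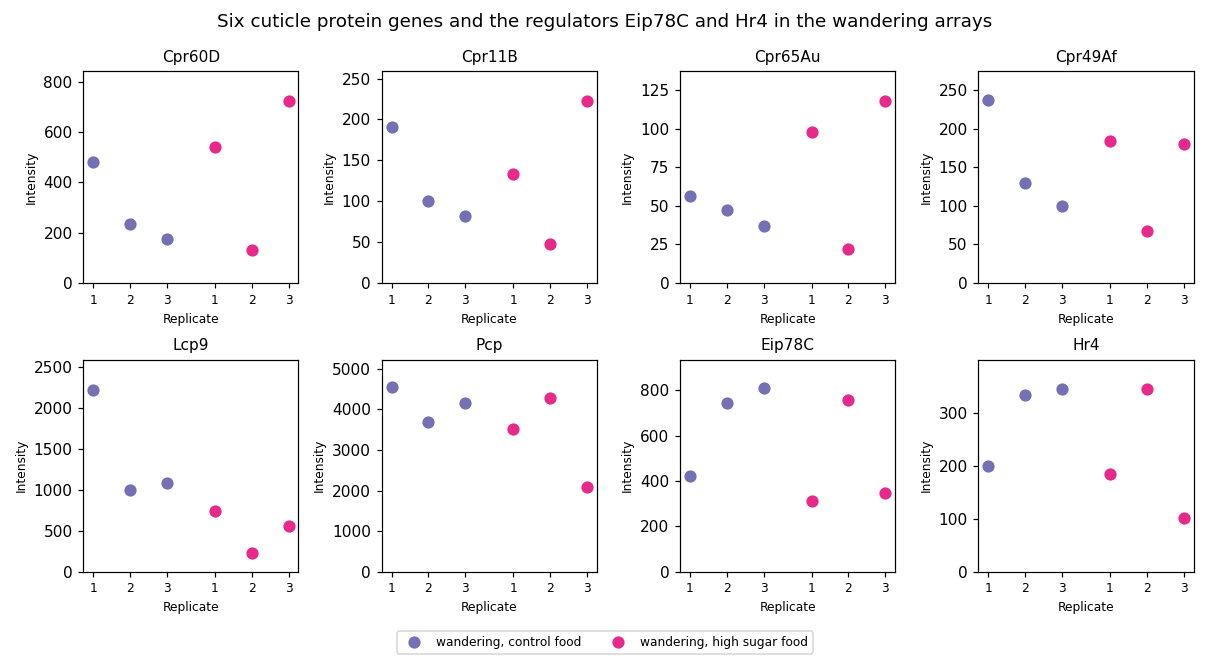
Deposited intensity of Cpr60D, Cpr11B, Cpr65Au, Cpr49Af, Lcp9 and Pcp and of the regulators Eip78C and Hr4 in the 6 wandering arrays, by replicate (control food left, high sugar food right). Replicate 2 on high sugar food is the lowest of its group in the first 5 genes and the highest in Pcp, Eip78C and Hr4.

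Other genes of cuticle formation were read from lists made from general knowledge. Of 19 tested genes of chitin synthesis and assembly, 15 fell and 2 rose between the stages on control food, where 38.8% of all tested genes fell and 41.1% rose, with a median of -1.01. The chitin synthase gene kkv changed by -1.48 and mmy, whose enzyme makes the activated sugar that chitin synthase uses, by -1.84. The chitin deacetylase genes verm and serp changed by -3.16 and -1.81, and obst-E, the gene of a chitin-binding protein of the larval cuticle, by -4.82 (adjusted p = 9.4e-08). Cht5, a chitinase of the moults, rose by 2.01 (adjusted p = 1.9e-07). Of 12 tested tanning genes, 6 fell and 6 rose, each near the share of all tested genes, with a median of 0.30. Among those that rose were Ddc and Pu, needed to make dopamine and its cofactor, at 5.003 and 3.79, ebony (e) at 3.71 and yellow-f at 4.47. The 6 tanning genes that fell are not named here. Of 7 tested genes of other cuticle and apical matrix proteins, 5 rose and 2 fell. Of 9 tested regulators of the hormone response, 6 rose: Eip78C by 4.86, Hr4 by 3.94, br by 2.87, EcR by 1.44, Hr39 by 1.003 and Kr-h1 by 0.86. In the same list ftz-f1 and usp fell by 2.23 and 0.41, and grh, an epidermal transcription factor, changed by 0.12 and did not pass.

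Markers of several tissues moved with the stage as well, where 38.8% of all tested genes fell on control food and 41.1% rose. The summed intensity of 8 epidermal and tracheal markers was 20315 to 21003 in mid-L3 and 8356 to 9329 in wandering control arrays, and 5 of the 8 fell and 1 rose. With high sugar the sums were 17158 to 18394 and 7329 to 8751. This list shares 6 genes with the chitin list and 1 with the regulators. The 6 tested muscle markers of 10 listed summed to 42240 to 44861 in mid-L3 and 12897 to 18344 in wandering control arrays (5 fell). The 7 hemocyte markers went from 20438 to 20783 down to 2584 to 3610 (6 fell), and the 10 salivary gland markers from 6257 to 8014 up to 65806 to 67988 (7 rose, 3 fell). The 3 tested fat body markers of 8 listed summed to 18356 to 21578 and 28722 to 32189 (2 rose), 9 midgut markers of 10 to 36141 to 38164 and 36435 to 41743 (4 rose, 4 fell), and 6 imaginal disc markers of 8 to 725 to 849.8 and 1289 to 1561 (4 rose, 1 fell). No value of any probe set was 0. The part of changed tissue shares in the stage changes of the cuticle protein genes was not tested.

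In the diet comparisons the sums moved too. Of all tested genes, 7.57% were higher and 6.45% lower on high sugar food in mid-L3 larvae, and 3.73% and 2.86% in wandering larvae. In mid-L3 larvae the epidermal and tracheal sum was 20315 to 21003 on control and 17158 to 18394 on high sugar food, with 1 of 8 markers lower (verm, -0.36, adjusted p = 0.017) and none higher. The salivary gland sum was 6257 to 8014 and 15571 to 18777 (2 of 10 higher), the muscle sum 42240 to 44861 and 39419 to 41283 (1 of 6 lower), the fat body sum 18356 to 21578 and 12655 to 18405 (1 of 3 lower), the hemocyte sum 20438 to 20783 and 18887 to 19755 (none called), and the midgut sum 36141 to 38164 and 44283 to 49183 (4 of 9 higher, 1 lower). The disc sum was 725 to 849.8 and 873 to 980.3 (1 of 6 higher, 1 lower). In wandering larvae the epidermal and tracheal sum was 8356 to 9329 and 7329 to 8751, with no marker called, and calls in the other lists were 3 of 10 salivary gland markers higher, 2 of 9 midgut markers higher and 1 lower, 1 of 7 hemocyte markers higher, and none of the muscle, fat body or disc markers. Within chitin synthesis and assembly, 2 of 19 tested genes fell and 1 rose in mid-L3 larvae, few beside the shares of all tested genes given above. The part of these differences in the diet changes of the cuticle protein genes was not tested.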

How the data were processed

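Total RNA of 12 samples of whole larvae (2 ug each) was made into biotin-labelled cRNA and hybridized to Affymetrix arrays, per the labels' protocols. Each deposited value is an intensity that the authors gave per probe set, not logged (0.434 to 15822, median per array 62.2 to 82.4). How probes were summarized and normalized is not given in the sources used here, no detection calls were used here, and precision is limited by the number of arrays. Of 18952 probe sets, 183 array controls were left out, 13647 had 1 gene, 402 several and 4720 were unlisted. Entrez identifiers gave 13544 of them a current symbol, and 103 kept the platform's name. The brightest probe set stood for each of 11982 genes.

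Intensities plus 12.8 (the 20th percentile) were taken to log2 and quantile normalized, since 2% trimmed means differed by up to 10.1% and log2 medians by 0.346. The filter kept the 8387 genes whose mean reached its 30th percentile (73.3). Low values are compressed by the added constant, so log2 changes understate the change of dim genes. All adjusted p-values come from limma 3.58.1 in R 4.3.3, with 1 mean per group over the 12 arrays (8 residual df, prior df 4.37, intensity trend). The limma model with 1 mean per group was tried on simulated log2 values. That trial did not cover the scaling, the filter, the choice of probe set or the difference of the diet effects. Scripts used Python 3.11.15 and matplotlib 3.10.9.

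The family, gene lists and tests were chosen with earlier results of these data known. Named genes were chosen by a rule: per comparison up to 10 genes per direction with the largest change among those that passed, the genes behind the 15 highest group means, genes with several probe sets, the 3 next to the filter on each side, up to 4 per list and comparison, and all tested hormone-response regulators. Genes in the paragraphs on replicate spread, on genes that did not pass between the stages and on dim genes were partly chosen after their values were seen. Same-numbered control arrays of the stages deviated together (correlations 0.199, 0.158 and 0.128 over genes). Their numbers were taken as pairs only in alternatives with a replicate block, and the main fits have no block. The labels do not state a shared batch, and the other same-numbered pairs did not all exceed 0.1. Some arrays with different numbers correlated more, as wandering control replicate 3 with wandering high sugar replicate 2 (0.380). Alternatives were the scaling, the added constant, the filter, the choice of probe set, the arrays fitted, a replicate block, array weights, the variance prior and each array left out. After seeing the data, 2 were added: a fit without both control arrays numbered 1, and the block fitted to the 6 control arrays only.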

Additional observations from a re-analysis of the deposited data

Results flagged for a closer look

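Of the 50 tested cuticle protein genes, 4 passed a test of the difference between the diet changes at the stages (limma's interaction, wandering minus mid-L3). That is near the share of all tested genes, of which 654 of 8387 (7.8%) passed. The difference was 3.15 for TwdlO, 1.93 for Cpr78Cc and 1.23 for TwdlP, which fell after 12 h of high sugar food in mid-L3 larvae, and -0.75 for Cpr56F, which fell in wandering larvae reared on it. The adjusted p was 0.0021, 0.0001, 0.0073 and 0.030. In TwdlO, Cpr78Cc and TwdlP all 3 mid-L3 high sugar arrays lay below all 3 control arrays, and in Cpr56F all 3 wandering high sugar arrays did. TwdlO lay below the added constant of 12.8 in all 6 wandering arrays, so no fall with diet could be measured there, and its difference repeats the change in mid-L3 larvae. Cpr78Cc was also at low signal in wandering larvae on either food. The call of Cpr56F ended in 10 of 25 alternatives (range of adjusted p 0.0031 to 0.12). Stage and length of exposure cannot be told apart in these differences.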

How the results depend on the processing

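Over 97 named changes and 2512 alternative values, 2385 kept their direction and side of the threshold, 62 no longer passed and 13 newly passed. A further 52 values, all of changes that did not pass, took the opposite direction. No change that passed reversed its direction. Between the stages, 47 of 50 genes passed on each food, beside 80% and 79.9% of all tested genes. Without the filter 72 of 104 passed on control food (70% of all). With a filter at the 50th percentile, 31 of 32 passed on control food (81.2% of all) and 30 on high sugar food (80.4% of all). The other alternatives gave counts within 1.5 times. In mid-L3 larvae 9 passed by diet (14% of all tested genes passed), 17 when only the 6 compared arrays were fitted (21% of all) and 16 with array weights (30% of all). When 1 array was left out 4 to 12 passed. The lowest of these was without mid-L3 control replicate 3 (8.48% of all) and the highest without wandering high sugar replicate 2 (18.1% of all). In wandering larvae 4 passed by diet (6.59% of all), 1 with only the compared arrays (2.64%), 11 with array weights (30.4%) and 2 without both control arrays numbered 1 (4.08%). When 1 array was left out 2 to 7 passed, with 2 without control replicate 1 (4.83% of all) and 7 without high sugar replicate 2 (17.2%). The difference of the diet effects passed in 4 (7.8% of all) and in 18 with array weights (27%). It passed in 3 to 9 when 1 array was left out, with 9 without wandering high sugar replicate 2 (15.2% of all). With the replicate number as a block, 47, 47, 7, 4 and 4 genes passed in these comparisons. The shares of all tested genes were then 79%, 78.8%, 12.4%, 5.13% and 6.75%. The block ended the mid-L3 diet calls of Cpr31A (adjusted p = 0.077) and Cpr67Fa1 (0.060), and in the difference of the diet effects it ended that of Cpr56F (0.063) and added Lcp9 (0.038). It changed no other call, and with that block in the 6 control arrays alone 47 genes passed on control food (80.8% of all tested genes). Outside the control arrays of the stages, same-numbered arrays share only a number, with correlations of -0.240 to 0.269 between the diets in wandering larvae, -0.245 to -0.068 between the diets in mid-L3 larvae and -0.013 to 0.047 between the stages on high sugar food. The cause of these shifts was not tested, except that a filter changes how many genes are tested. Limits are 3 arrays per group, unknown probe summarization, no detection calls for the many dim genes, and near-identical copies that probes may not separate.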

Other observations

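Some genes of cuticle formation outside the structural protein families changed with diet. Idgf2, of the imaginal disc growth factor family of chitinase-like proteins, stood at 3004, 2913 and 2911 on control and 1976, 1735 and 1979 on high sugar food in mid-L3 larvae (log2 change -0.57, adjusted p = 0.00061), and at 1716, 1786 and 1417 and 1956, 1866 and 2237 in wandering larvae (0.36, adjusted p = 0.024). Pu, whose enzyme begins the synthesis of the cofactor for dopamine production, rose by 0.61 in mid-L3 larvae (adjusted p = 0.0013) and changed by -0.39 in wandering larvae (adjusted p = 0.038). The difference of the diet effects passed for both, at 0.93 for Idgf2 (adjusted p = 0.00037) and -0.999 for Pu (adjusted p = 0.00082). These genes were chosen after their values were seen.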
